A study of Mus musculus with 45 samples.

Results

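The comparison described is SOX2 depletion for 1 h against untreated cells, read by ATACseq in mouse embryonic stem cells (mESC). It rests on 4 of the 45 samples of the series, the columns of the count table for SOX2-FKBP cells without treatment (NT, replicates 1 and 2) and for the same line after 1 h (1H, replicates 1 and 2). SOX2-FKBP is an E14 (IB10) line in which both copies of Sox2 carry, at the C-terminal end, an FKBP degradation tag with 2xHA and a P2A-linked fluorescent protein. The 1H cells received 500 nM dTAG-13 for 1 h, and the NT cells received DMSO. All 4 libraries share the edited alleles and the serum-free 2i/LIF culture, and the labels do not give whether a replicate comes from a second clone. The p-values rest on a spread between replicate libraries that was estimated over all 12 libraries of the SOX2-FKBP time course. That spread is not the one of these 4 libraries alone, and it may be technical. Accessibility counts do not measure SOX2 protein, and the depletion itself was not checked here.

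SOX2 is a transcription factor with a high-mobility group (HMG) domain that binds the minor groove of DNA, also on nucleosomes, and it is one of the pioneer factors of pluripotency. It pairs with the POU factor OCT4 on composite SOX-POU sequences in enhancers of pluripotency genes. dTAG-13 links the FKBP tag to a ubiquitin ligase, so that the tagged protein is degraded in the proteasome, and ATACseq counts the fragments that the Tn5 transposase releases from open chromatin. An open chromatin region (OCR) that holds fewer fragments after treatment is called lost here and one that holds more is called gained.

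The 4 libraries held 10531404 and 6479369 counts in peaks for NT and 9078377 and 5709518 for 1H, so replicate 1 was the deeper library in both groups. Mitochondrial peaks took 2.42% and 2.74% of the NT counts, 3.37% of 1H replicate 1 and 1.84% of 1H replicate 2. The 12 libraries of the SOX2-FKBP time course were fitted together over the 160432 peaks that had more than 10 counts in at least 3 of them. Levels are normalized counts, that is counts divided by each library's effective size and brought to a common size. Of 8 promoters chosen as marks of stem cells, 7 had a tested peak, with 47.0 to 426 normalized counts in NT. At 1 h 0 of the 7 were called, which does not show that their levels were unchanged. The promoter of Nanog, a pluripotency homeobox factor, held 253 and 235 in NT and 187 and 155 at 1H, with an adjusted p of 0.053 from edgeR. Of 12 promoters of genes that mark other cell types, 10 had a tested peak, with 22.9 to 253 in NT. Their summed level was 938 and 947 in NT and 838 and 1082 at 1H. The median promoter level in NT was 228 in the first list and 74.8 in the second, and their ranges overlapped. Pou5f1 of the first list and Mesp1 and Ptprc of the second had no tested promoter peak.

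At 1 h after addition of dTAG-13, 8754 of 160432 peaks were lost (5.46%) and 1427 were gained (0.889%), by edgeR's quasi-likelihood test with a Benjamini-Hochberg adjusted p below 0.05. Losses were thus 86.0% of the called peaks. Lost peaks had a median log2 fold change of -1.36 (replicate 1: -1.39, replicate 2: -1.22) and kept a median of 39.3% of their NT level. Gains were smaller, with a median of 0.93, or 0.98 in replicate 1 and 0.81 in replicate 2. The median over all tested peaks was 0.00. Among the lost peaks 6791 fell at least 2-fold and 1375 at least 4-fold, while 578 gained peaks rose at least 2-fold and 23 at least 4-fold. These medians describe peaks selected by their own test and are therefore larger than those of unselected peaks.

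**Figure D1:**
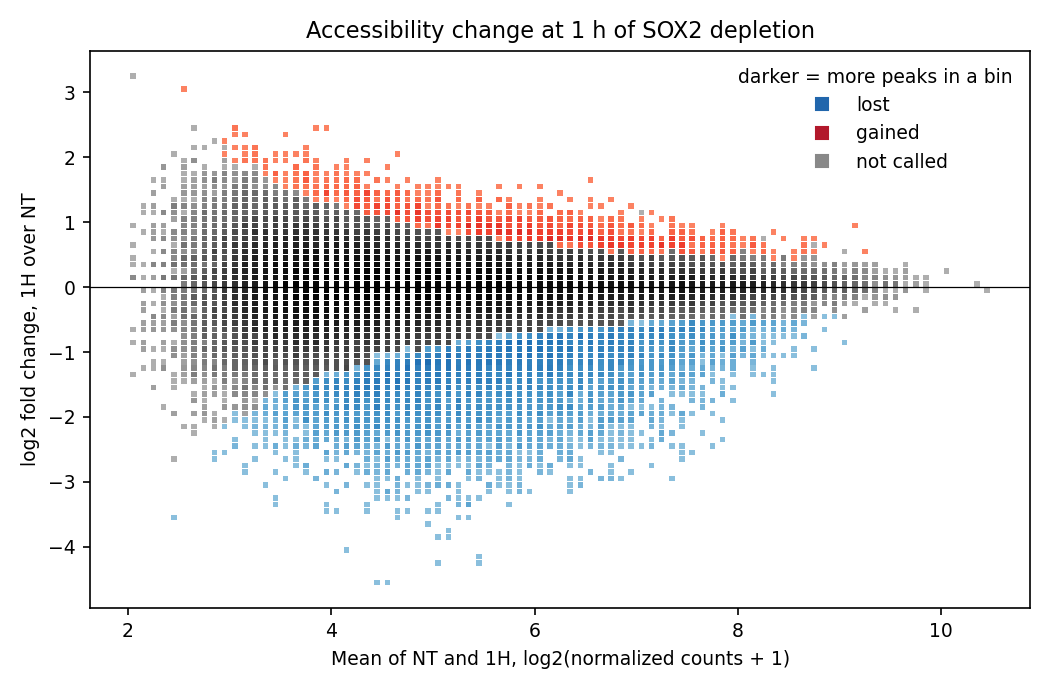
Each square is a bin of peaks by the mean level of NT and 1H on the x axis, as log2(normalized counts + 1), and the log2 fold change of 1H over NT on the y axis, with lost peaks in blue, gained peaks in red and the rest in grey. The 8754 lost peaks reach below -4, while 23 of the 1427 gained peaks pass 2, most of them at low levels.

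The gains were the less stable class. With 1H replicate 1 left out, 257 peaks were gained, and with 1H replicate 2 left out, 2916 were. Leaving out NT replicate 1 gave 575 and leaving out NT replicate 2 gave 400, and DESeq2's Wald test called 225. For the losses the counts were 4503 without 1H replicate 1, 8243 without 1H replicate 2, 5610 and 6011 without an NT library, and 4264 with DESeq2. When library totals replaced TMM as the scaling, the counts were 7881 lost and 2024 gained, so that losses made up 79.6% of the calls. In the gained peaks 1H replicate 1 stood above 1H replicate 2 in 76.8%, against 50.7% of all tested peaks. NT replicate 1 stood above NT replicate 2 in 60% of the gained peaks, against 50.9% of all. In the lost peaks these shares were 34.8% at 1H and 42.2% in NT. The part of 1H replicate 1, which also had the higher mitochondrial share of the 1H libraries, was not tested.

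The share of called peaks differed by level. Of 51911 peaks with fewer than 20 normalized counts in whichever of the NT and 1H means was higher, 0.366% were lost and 0.125% gained. Of 21947 peaks with 100 to 300, 12% were lost and 2.18% gained. Of the 3004 peaks above 300 the shares were lower again, with 6.19% lost and 1.33% gained. The called peaks at low levels had the larger fold changes, with a median of -1.90 for losses below 20 normalized counts against -0.86 for losses above 300.

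The 12 losses of largest fold change are named by their nearest protein-coding gene, among called peaks with at least 50 normalized counts in the higher group and both 1H libraries below both NT libraries, with 1 peak per gene. Over all tested peaks both 1H libraries lay below both NT libraries in 22.7% and above them in 19.2%, so that position alone says little about a peak. Nearness to a start does not show that the peak acts on that gene. Below are the 200 bases at the summits of the first 5, from mm10 on the plus strand, 5′ to 3′, shown because they are the sequences around which accessibility fell most by this rule. Capitals mark matches, on either strand, to the SOX site (CATTGT or CTTTGT), the SOX-POU composite (TTGTNATGC) or the POU octamer (ATGCNAAT).
Slc8a1, chr17:82306460-82306659: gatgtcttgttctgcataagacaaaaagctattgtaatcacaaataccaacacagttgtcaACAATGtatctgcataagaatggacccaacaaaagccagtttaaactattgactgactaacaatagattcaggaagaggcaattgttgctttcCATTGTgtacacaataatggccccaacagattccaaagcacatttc
Reps2, chrX:162505285-162505484: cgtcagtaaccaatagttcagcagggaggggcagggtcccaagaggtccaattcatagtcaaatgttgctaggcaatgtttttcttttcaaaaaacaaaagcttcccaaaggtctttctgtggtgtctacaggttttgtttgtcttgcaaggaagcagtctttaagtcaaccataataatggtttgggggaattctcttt
Anks1b, chr10:90709619-90709818: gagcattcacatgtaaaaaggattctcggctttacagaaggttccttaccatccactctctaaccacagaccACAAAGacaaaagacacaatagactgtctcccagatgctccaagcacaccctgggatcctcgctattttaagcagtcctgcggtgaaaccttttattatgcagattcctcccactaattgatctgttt
1700003H04Rik, chr3:124606195-124606394: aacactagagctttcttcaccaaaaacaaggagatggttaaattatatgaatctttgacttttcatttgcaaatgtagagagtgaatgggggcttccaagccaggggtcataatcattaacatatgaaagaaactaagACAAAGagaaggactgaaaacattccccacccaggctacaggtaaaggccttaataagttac
4921511C20Rik, chrX:127524628-127524827: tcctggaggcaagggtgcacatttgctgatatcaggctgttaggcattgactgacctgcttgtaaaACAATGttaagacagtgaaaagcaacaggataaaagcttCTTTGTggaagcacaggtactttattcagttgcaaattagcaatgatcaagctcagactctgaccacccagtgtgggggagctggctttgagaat

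Of these 5 windows, those at Slc8a1 and 4921511C20Rik hold 2 SOX sites each, those at Anks1b and 1700003H04Rik hold 1, and the window at Reps2 holds none of the 3 patterns. The peak at Slc8a1, which encodes a sodium-calcium exchanger, lies between genes on chromosome 17 from 82305927 to 82306796, with its summit 568 kb upstream of the start. It held 84.8 and 76.0 normalized counts in NT and 3.92 and 4.39 at 1H, a log2 fold change of -4.26 (SE 0.38, adjusted p = 1.66e-09, edgeR). The peak in an intron of Reps2, which encodes a protein of endocytosis, lies on chromosome X from 162504941 to 162505756 and held 50 and 69.1 in NT against 2.94 and 2.92 at 1H (log2 fold change -4.26, SE 0.46, adjusted p = 4.24e-08, edgeR). In both peaks the 1H libraries were far below the NT libraries and at only 2 to 4 fragments each.

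At Anks1b, which encodes an ankyrin repeat scaffold protein, the peak on chromosome 10 from 90709232 to 90710202 held 71.2 and 85.7 in NT and 0.979 and 8.77 at 1H (log2 fold change -4.19, SE 0.46). The 0.979 is a single fragment in 1H replicate 1. Single fragments also stand behind 1H replicate 1 at 1700003H04Rik and 4921511C20Rik, so the exact fold there depends on counting error. The summit at Anks1b lies 119 kb upstream of the coding gene's start, and the start of the non-coding Gm47591 is nearer, at 19241 bp. Near Ripk2, a kinase of innate immune signalling, the peak held 49.2 and 81.6 in NT and 2.94 and 7.31 at 1H, with its summit 551 kb from the start. The lincRNA Gm11861 was nearer to it.

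The peak in an intron of Abcd3, a peroxisomal transporter, held 70.4 and 71.9 in NT and 3.92 and 8.77 at 1H (log2 fold change -3.56, SE 0.38, adjusted p = 2.91e-08, edgeR). Upstream of Chd9, a chromodomain helicase, a peak with its summit 4.09 kb from the start held 71.2 and 76.0 in NT and 6.85 and 7.31 at 1H (log2 fold change -3.36, SE 0.43). Hace1, a ubiquitin ligase, Triqk, Lrrc69 and Hnmt, which inactivates histamine, complete the 12. The lincRNA Gm47568 was nearer than Hace1 to the peak named by it. Over the 12 peaks the log2 fold change ran from -4.26 to -3.36, 4.92% to 9.62% of the NT level was left, and 7 lay between genes and 5 in introns. All 12 kept the call in every setting in which they were tested.

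**Figure D2:**
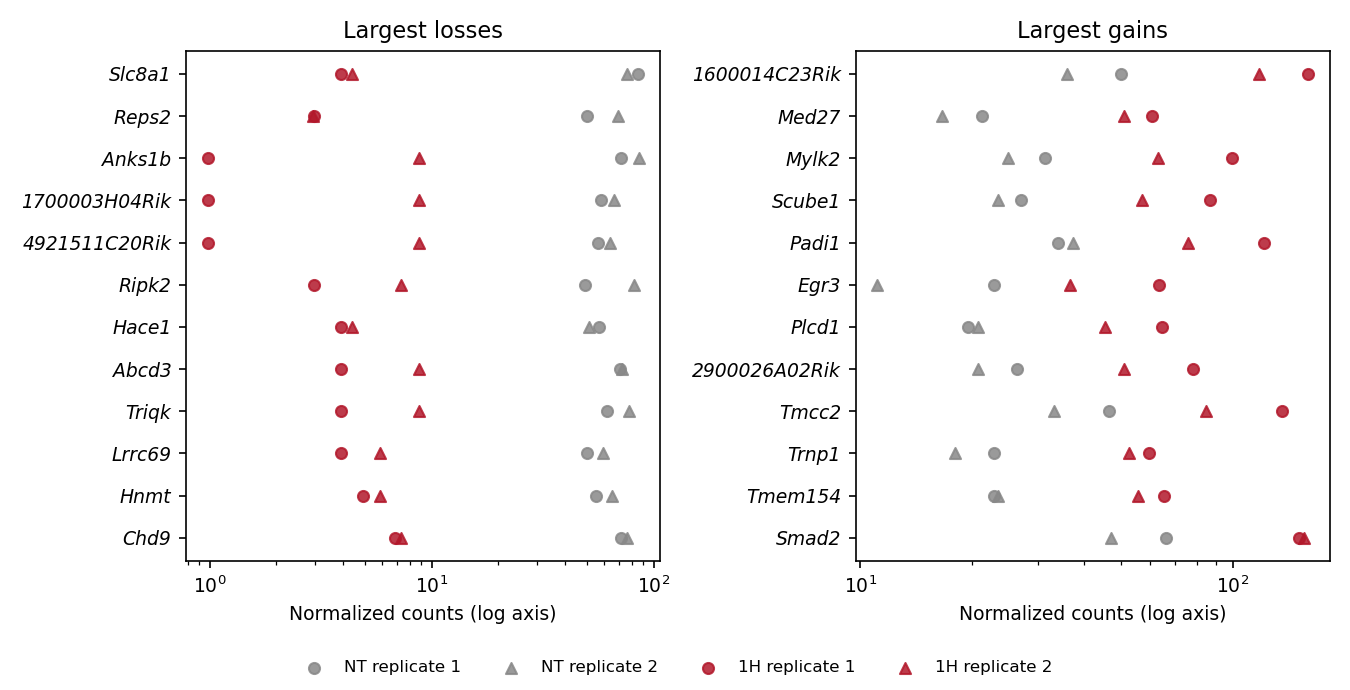
Normalized counts (log axis) of the 12 losses and the 12 gains of largest fold change, by nearest protein-coding gene, with NT in grey, 1H in red, circles for replicate 1 and triangles for replicate 2. The 1H libraries lie between 0.979 and 8.77 at the losses, and at each gain the rule placed both 1H libraries above both NT libraries.

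Called peaks at annotated starts were few. Of 18846 peaks with their summit within 500 bp of a protein-coding start, 185 were lost (0.982%) and 78 gained (0.414%), and of 18044 peaks over 100 kb from a start 2232 were lost (12.4%) and 106 gained (0.587%). The share lost was 4.06% from 500 bp to 5 kb, 5.00% from 5 to 50 kb and 7.74% from 50 to 100 kb, so it was higher in each farther class. The gained share had its highest value, 1.21%, from 500 bp to 5 kb. The median distance of the summit to the nearest start was 29.8 kb for lost peaks, 11.7 kb for gained peaks and 13.1 kb for all tested peaks. Lost peaks lay between genes in 51.8% and in introns in 44.9%, gained peaks in 38.3% and 53.0%, and all tested peaks in 38.5% and 48.7%. The median fold change of the lost peaks also differed by distance, from -1.01 within 500 bp to -1.49 beyond 100 kb.

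Among promoter losses, named as the 5 of largest fold change within 500 bp of a start, the peak at Etl4 held 89.9 and 104 in NT and 20.6 and 23.4 at 1H (log2 fold change -2.14, SE 0.28, adjusted p = 1.48e-06, edgeR). Agps, an enzyme of ether lipid synthesis, held 188 and 228 in NT and 58.7 and 61.4 at 1H (log2 fold change -1.78, SE 0.22). The promoter peak of Ackr4, an atypical chemokine receptor, held 99.2 and 105 in NT and 33.3 and 24.9 at 1H (log2 fold change -1.77, SE 0.23). Ang2, of the angiogenin ribonuclease family, and Alg13, of protein glycosylation, were the other two. The 5 kept 22.7% to 31.1% of their NT level, more than the 12 losses above.

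At 0.5 h against the same NT libraries 254 peaks were called higher (0.158%) and 5041 lower (3.14%). The direct test of 1H against 0.5H called 0 lower (0%) and 0 higher (0%) peaks by edgeR and by DESeq2. At an unadjusted p below 0.05 edgeR gave 3836 lower and 2550 higher peaks. Together these were 6386 of the 160432 tested peaks, less than the share of 0.05 that this threshold allows where nothing changes. The smallest adjusted p from edgeR was 0.139 for lower and 0.62 for higher peaks. The rise from 254 to 1427 is thus a difference between counts of calls against shared NT libraries, and in these fits, which hold no block for the replicate number, no single peak was called between 0.5 h and 1 h.

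Of the 12 gains of largest fold change, the sequences at the first 3 summits are given in the same way, to be set beside those of the losses.
1600014C23Rik, chr17:45807468-45807667: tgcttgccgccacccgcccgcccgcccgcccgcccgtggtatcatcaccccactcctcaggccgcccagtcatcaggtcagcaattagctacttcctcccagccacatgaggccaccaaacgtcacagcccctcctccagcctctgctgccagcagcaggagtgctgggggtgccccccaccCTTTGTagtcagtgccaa
Med27, chr2:29557345-29557544: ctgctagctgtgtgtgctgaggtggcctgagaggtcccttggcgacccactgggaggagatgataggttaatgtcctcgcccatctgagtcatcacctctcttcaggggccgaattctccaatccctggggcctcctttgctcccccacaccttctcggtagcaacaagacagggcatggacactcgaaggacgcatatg
Mylk2, chr2:152917259-152917458: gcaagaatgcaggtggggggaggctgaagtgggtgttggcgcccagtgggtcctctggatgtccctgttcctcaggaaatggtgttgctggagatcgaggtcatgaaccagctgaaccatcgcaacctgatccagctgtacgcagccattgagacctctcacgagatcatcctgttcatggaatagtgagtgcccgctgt

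The first window holds 1 SOX site and the other two hold none of the 3 patterns. The first 3 gain windows have a GC content of 66%, 57.5% and 56%, against 37.0% to 44.5% in the 5 loss windows. The peak nearest to 1600014C23Rik lies in an intron on chromosome 17 from 45806722 to 45808086, and the lincRNA AC165259.1 starts nearer to it. It held 50 and 35.9 normalized counts in NT and 160 and 118 at 1H, a log2 fold change of 1.67 (SE 0.22, adjusted p = 1.19e-06, edgeR). The peak between genes near Med27, a subunit of Mediator, on chromosome 2 from 29557290 to 29557766, held 21.2 and 16.6 in NT and 60.7 and 51.2 at 1H (log2 fold change 1.54, SE 0.30, adjusted p = 0.000449, edgeR).

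The exonic peak of Mylk2, a kinase of skeletal muscle myosin, lies on chromosome 2 from 152917209 to 152917824 and held 31.4 and 24.9 in NT and 99.8 and 62.9 at 1H (log2 fold change 1.53, SE 0.25). Upstream of Egr3, an immediate early zinc finger factor, a gained peak lay 61.6 kb from the start and nearer to the antisense Gm33524. This peak held 22.9 and 11.1 in NT and 63.6 and 36.5 at 1H (log2 fold change 1.51, SE 0.33). It was no longer called without NT replicate 2 or without 1H replicate 1, and without 1H replicate 1 the calls at Scube1, Plcd1 and 2900026A02Rik were lost too. Smad2, which carries signals of Nodal and TGF-beta, had a gained peak 69.8 kb upstream, nearer to the lincRNA AC107768.1. This peak held 66.1 and 47.0 in NT and 151 and 155 at 1H (log2 fold change 1.39, SE 0.21, adjusted p = 1.11e-05, edgeR). Here both 1H libraries had nearly the same level. Over the 12 gains the log2 fold change ran from 1.39 to 1.67 and the 1H level was 261% to 323% of NT.

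The 5 promoter gains rose less, with log2 fold changes of 1.03 to 1.12. The promoter peak of Itpr1, an intracellular calcium channel, held 50.9 and 40.1 in NT and 104 and 96.5 at 1H (log2 fold change 1.11, SE 0.22, adjusted p = 0.0005, edgeR). That of Zc3h12a, an endoribonuclease that limits inflammatory mRNAs, held 52.6 and 51.2 in NT and 114 and 105 at 1H (log2 fold change 1.08, SE 0.22). Both kept the call in all settings tested. Tns1, a focal adhesion protein, Tpsg1, a mast cell tryptase, and Med24, of Mediator, lost it with DESeq2 and without 1H replicate 1.

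SOX-related sequence was frequent at the summits of lost peaks. A SOX site occurred within 200 bp at the summit in 53.4% of lost peaks, 11.6% of gained peaks and 24.8% of all tested peaks, counting both strands. The SOX-POU composite occurred in 7.08%, 0.210% and 0.888%, and the POU octamer, which OCT4 binds, in 11.3%, 3.71% and 3.85%. The composite shares letters with the SOX site CATTGT, and a window can hold several matches. The share with the composite was 13.9% in losses of at least 4-fold, 6.78% from 2-fold to 4-fold and 3.16% under 2-fold, and that with a SOX site was 63.8%, 53.5% and 46.1%. With the whole peak searched, the composite shares were 22.5%, 13.2% and 8.20% in the same order, whereas the SOX site shares were 86.8%, 85.6% and 89.8% and no longer followed the size of the loss. The part of peak width in the whole-peak shares was not tested. The octamer in the summit window was at 11.9%, 11% and 11.5%, also with no such order. Of the 1424 tested peaks with a composite 43.5% were lost, against 2.94% of the 115547 peaks with none of the 3 patterns. In the other direction 38.8% of the lost peaks held none of them.

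Of the other patterns searched, some were more frequent in gained peaks than in all tested peaks and some less. The pattern GGGNGTGG, bound by KLF factors, was found in 21.0% of gained, 11.5% of lost and 13.7% of all tested peaks, and CAAGGTCA, bound by the orphan receptor ESRRB, in 12.5%, 6.47% and 4.52%. The AP-1 pattern TGAGTCA was in 7.50%, 5.37% and 5.10%. The CTCF pattern, AGGTGGC or AGGGGGC, was in 9.88% of gained, 7.61% of lost and 13% of all tested peaks. The SP (GGGGCGGGG), OTX (GGATTA) and CREB (TGACGTCA) patterns were in 1.40%, 5.26% and 0.14% of gained peaks, against 2.61%, 5.67% and 0.44% of all. The median GC content of the summit windows was 54.5% in gained, 47.0% in lost and 52.0% in all tested peaks, and its part in these shares was not tested. A match is a description of letters and not a bound site.

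**Figure D3:**
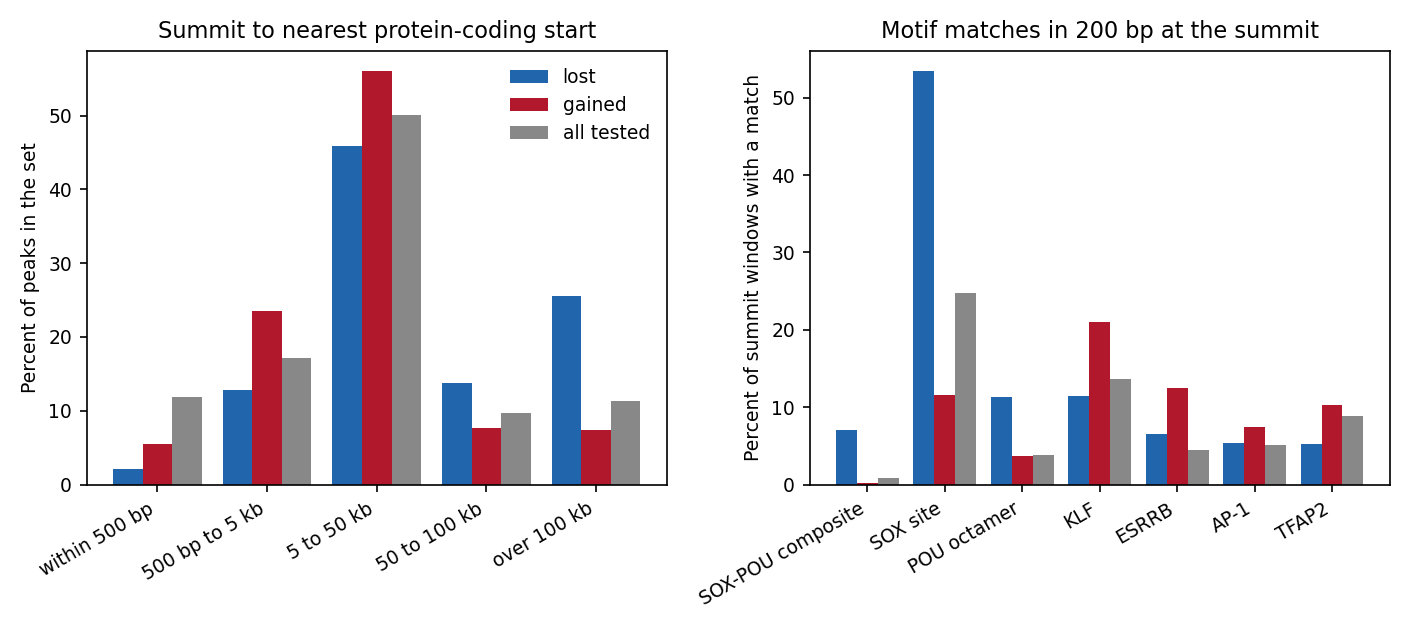
Left, the percent of lost (blue), gained (red) and all tested (grey) peaks by distance of the summit to the nearest protein-coding start; right, the percent whose 200 bp summit window holds each sequence pattern. Lost peaks are over 100 kb from a start in 25.5% against 7.43% of gained and 11.3% of all peaks, and hold a SOX site in 53.4% against 11.6% and 24.8%.

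Lost peaks were found near most of the listed regulators of naive pluripotency, but not near all of them. Peaks were assigned to listed genes when the nearest protein-coding start was within 100 kb. Of all 142256 such peaks 4.58% were lost and 0.929% gained, with a median log2 fold change of 0.01. Of the 18573 genes with such a peak, 4313 had at least 1 lost peak and 1040 at least 1 gained peak. Genes with more peaks have more chances of a call, so the tallies of genes, here and for the lists below, depend on peak number. Of 465 peaks at 20 naive pluripotency regulators 34 were lost (7.31%) and 0 gained, with a median of -0.08, and 17 of the 20 genes had at least 1 lost peak. The exceptions were Nanog with 0 lost of 16 peaks, the orphan receptor gene Esrrb with 0 of 57 and the T-box gene Tbx3 with 0 of 46. Klf2, a Krüppel-like factor of naive pluripotency, had 4 lost peaks of 8. The one 2.70 kb upstream of its start, on chromosome 8 from 72316068 to 72316776, held 226 and 241 in NT and 40.1 and 71.6 at 1H (log2 fold change -2.11, SE 0.23, adjusted p = 4.12e-08, edgeR). The one 15.2 kb downstream held 414 and 509 in NT and 187 and 155 at 1H (log2 fold change -1.41, SE 0.17). Prdm14, a repressor of differentiation, had 4 lost peaks of 24. Among them a peak 52.4 kb from its start, nearer to the lincRNA Gm29283, held 82.2 and 82.9 in NT and 21.5 and 17.5 at 1H (log2 fold change -2.05, SE 0.29). An intronic peak of Mybl2, a cell cycle transcription factor, held 268 and 239 in NT and 91.0 and 108 at 1H (log2 fold change -1.37, SE 0.18). Klf4 had 4 lost peaks of 24, Pou5f1, which encodes OCT4, 2 of 6, and Sox2 itself 1 of 42.

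Of 206 peaks at 15 targets of SOX2 and OCT4 and genes of the Nodal pathway, 17 were lost (8.25%) and 0 gained, with a median of -0.09. The losses were at 8 of the 15 genes, and Nodal, Lefty2, Tdgf1, Dppa2, Dppa4, Trim28 and Rif1 had none. Lefty1, which encodes an inhibitor of Nodal, had 2 lost peaks of 3. Downstream of Spp1, which encodes osteopontin, a peak held 310 and 347 in NT and 135 and 143 at 1H (log2 fold change -1.24, SE 0.16, adjusted p = 1.2e-06, edgeR). A peak in the region 27.4 kb upstream of Otx2, a homeobox factor of the formative state, held 226 and 249 in NT and 93.0 and 99.4 at 1H (log2 fold change -1.30, SE 0.19). Jarid2, a partner of Polycomb complex PRC2, had 5 lost peaks of 66, and one 17.9 kb into the gene held 70.4 and 81.6 in NT and 21.5 and 24.9 at 1H (log2 fold change -1.71, SE 0.29). Fgf4 and Utf1, genes with known SOX2-OCT4 enhancers, had 1 lost peak each.

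Genes of the formative epiblast had 13 lost peaks of 281 (4.63%) and 1 gained, near the share of all peaks. Upstream of Lef1, a Wnt effector, a peak held 101 and 126 in NT and 23.5 and 42.4 at 1H (log2 fold change -1.83, SE 0.26). Dnmt3b, a de novo DNA methyltransferase, had 1 lost peak of 6, with 59.3 and 78.8 in NT and 19.6 and 29.2 at 1H (log2 fold change -1.51, SE 0.27). The other Sox and POU factors had 7 lost of 158 (4.43%) and 1 gained, and 4 of the 7 were at Sox13, including one 69.2 kb upstream that held 415 and 513 in NT and 207 and 228 at 1H (log2 fold change -1.09, SE 0.16).

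For lineages outside the epiblast, 7 of 222 peaks at trophectoderm regulators were lost (3.15%) and 2 gained, and 6 of 150 at primitive endoderm regulators were lost (4.00%) and 0 gained. The lost peak of smallest adjusted p at the first list was assigned to Eomes, a T-box factor, whose start is 71.9 kb away. Its summit lies 195 bp from the start of the lincRNA Platr11, so by the 500 bp distance used here it is a promoter peak of Platr11. The peak held 297 and 279 in NT and 63.6 and 83.3 at 1H (log2 fold change -2.0, SE 0.21, adjusted p = 2.51e-08, edgeR), and its summit window holds a SOX-POU composite. At Pdgfra, a receptor of primitive endoderm cells, a peak held 67.8 and 65.0 in NT and 26.4 and 24.9 at 1H (log2 fold change -1.37, SE 0.26). Neural and mesoderm regulators had 7 lost peaks of 113 (6.19%) and 3 gained (2.65%). Among these a peak 57.6 kb upstream of Pax6, a neural homeobox factor, was nearer to the lincRNA Paupar. It fell from 136 and 137 in NT to 52.9 and 71.6 at 1H (log2 fold change -1.16, SE 0.20). A peak downstream of Evx1, a homeobox factor of the primitive streak, was nearer to the antisense Evx1os. This one rose from 31.4 and 30.4 in NT to 76.3 and 80.4 at 1H (log2 fold change 1.33, SE 0.24, adjusted p = 0.000186, edgeR).

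Peaks near signalling genes went both ways. At genes of the LIF-STAT3, BMP and Wnt responses 21 of 372 peaks were lost (5.65%) and 12 gained (3.23%), with 9 of the 19 genes having a lost and 9 a gained peak. Upstream of Lifr, the LIF receptor, a peak held 397 and 350 in NT and 113 and 143 at 1H (log2 fold change -1.57, SE 0.18, adjusted p = 8.15e-08, edgeR), and 5 of its 35 peaks were lost. Il6st, the co-receptor gp130, had 3 lost peaks of 22, one with 186 and 246 in NT and 78.3 and 76.0 at 1H (log2 fold change -1.46, SE 0.20). Tcf7l1, the Wnt repressor TCF3, had an intronic peak with 180 and 144 in NT and 44.0 and 35.1 at 1H (log2 fold change -2.02, SE 0.22). The gains of this list were spread over Id2 with 3, Smad7 with 2, and Socs3, Id3, Bcl3, Smad6, Axin2, Cdx1 and Nkd1 with 1 each, of which Id2 and Id3 are BMP targets, Socs3 is a STAT3 target and Axin2 and Nkd1 are Wnt targets.

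Immediate early and growth factor response genes had 23 lost peaks of 372 (6.18%) and 3 gained. Dusp6, Dusp4 and Dusp1 encode phosphatases of MAP kinases, and each had a lost peak among the 4 of smallest adjusted p. These peaks lay 88 kb, 74.5 kb and 2.95 kb from the 3 starts in this order. The lincRNA B530045E10Rik was nearer to the first, and the lincRNA Gm45627 was slightly nearer to the second. The peak assigned to Dusp6 held 92.4 and 95.4 in NT and 9.79 and 32.2 at 1H (log2 fold change -2.29, SE 0.31), and its replicates at 1H differed by more than those of NT. Upstream of Myc a peak held 47.5 and 76.0 in NT and 6.85 and 14.6 at 1H (log2 fold change -2.56, SE 0.37). The Hippo-YAP list had 11 lost of 252 (4.37%) and 1 gained. Its OCR 4.13 kb upstream of Ccn2 (also Ctgf), a matricellular protein, was nearer to the non-coding Gm15270. This OCR held 230 and 189 in NT and 101 and 76.0 at 1H (log2 fold change -1.23, SE 0.19).

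Stress and housekeeping lists were included for contrast. Heat shock and stress genes had 4 lost (2.74%) and 4 gained (2.74%) of 146 peaks, with 3 of the 4 gains at Cdkn1a, which encodes the cell cycle inhibitor p21. One peak in its gene held 48.3 and 49.8 in NT and 115 and 81.9 at 1H (log2 fold change 1.04, SE 0.22), and it was not called without 1H replicate 1. Ribosomal protein genes had 3 lost peaks of 174 (1.72%) and 0 gained, one of them 4.57 kb upstream of Rps19.

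The later times of the same course give the values side by side, against the same NT libraries. Peaks lost at 1 h had a median log2 fold change of -0.94, -1.36, -1.45, -1.67 and -2.02 in the order of the times, from 0.5 to 24 h. Peaks gained at 1 h had 0.61, 0.93, 0.78, 0.66 and 0.49 at these times, so their median was highest at the time that selected them. The intronic gain near 1600014C23Rik had 1.11, 1.67, 1.70, 1.02 and 0.48, whereas the gain near Egr3 had 1.30, 1.51, 1.67, 1.66 and 1.51. The loss near Slc8a1 had -2.42, -4.26, -3.72, -3.42 and -4.08.

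**Figure D4:**
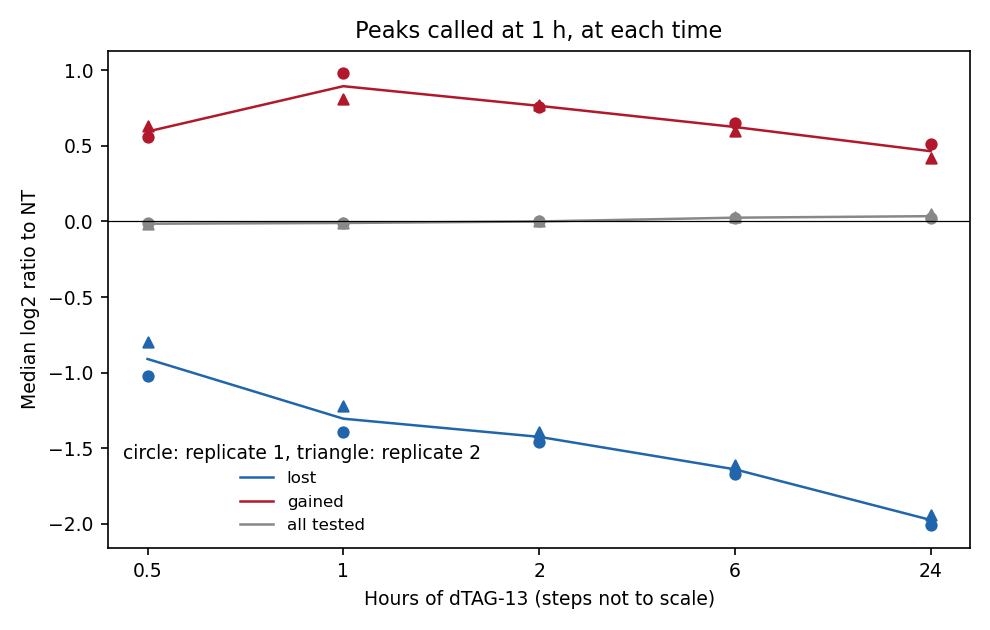
Median log2 ratio to NT, from normalized counts + 1, of the peaks lost (blue) or gained (red) at 1 h and of all tested peaks (grey), at 0.5, 1, 2, 6 and 24 h of dTAG-13, with circles for replicate 1, triangles for replicate 2 and a line through their mean. The peaks were chosen at 1 h; the lost peaks go from -1.02 and -0.80 at 0.5 h to -2.01 and -1.94 at 24 h.

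The OCT4-FKBP and NANOG-FKBP lines give values from libraries that had no part in the calls at 1 h of SOX2 depletion. In both, NT cells received DMSO and treated cells 500 nM dTAG-13 for 2 h. NANOG-FKBP is an E14 line like SOX2-FKBP, whereas OCT4-FKBP is a V6.5 line made in another laboratory, so for OCT4-FKBP the depleted factor and the background of the line cannot be told apart. The OCT4-FKBP libraries held 11316167 to 17575631 counts. At 2 h of OCT4 depletion (2 NT and 2 treated libraries) 5572 of 160166 peaks were lower (3.48%) and 1470 higher (0.918%), by the same test within that line. Of the 8201 peaks lost at 1 h in SOX2-FKBP that were tested there, 3212 were lower (39.2%) and 85 higher (1.04%), with a median log2 fold change of -0.87. Of the 1348 gains tested, 145 were higher (10.8%) and 4 lower (0.297%), with a median of 0.45. The peak near Chd9 fell in that line by 3.07 on the log2 scale (adjusted p = 7.45e-05, edgeR), whereas that near Hnmt had 0.24 (adjusted p = 0.852). At the gains, Scube1 had 1.99 (adjusted p = 0.00304) and Med27 0.44 (adjusted p = 0.842).

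The NANOG-FKBP comparison has 2 NT libraries, with 7102925 and 6035633 counts, and 3 treated ones, with 11625816, 1817191 and 5099730. Treated replicate 2 stood apart, with 17.56% of its counts in mitochondrial peaks against 3.206% to 4.414% in the other 4 libraries. At 2 h of NANOG depletion 1137 of 145975 peaks were lower (0.779%) and 9 higher (0.00617%). Of the 8635 losses tested there, 462 were lower (5.35%) and 0 higher, with a median of -0.24, and DESeq2 likewise called 0 higher. Of the 1267 gains tested, 13 were lower (1.03%) and 1 higher (0.0789%), with a median of 0.05. Without treated replicate 2, an alternative chosen after seeing the data, 838 peaks were lower and 3 higher. The losses at 1 h of SOX2 depletion then held 362 lower peaks (4.19%) and 0 higher with a median of -0.29, and the gains 7 lower and 0 higher with a median of 0.06. The peak near Lrrc69 was lower at a log2 fold change of -1.92 (adjusted p = 0.012) and that near Dusp4 at -1.83 (adjusted p = 0.00427), while the peak near Slc8a1 had -0.95 (adjusted p = 0.205). The lines differ in depth and in their spread between replicates, so the shares are not a comparison of effect between the lines, and that difference was not tested. In SOX2-FKBP the median NT level was 69.9 for lost, 39.8 for gained and 27.5 for all tested peaks. Called shares differed by level there, and the part of level in the shares of both other lines was not tested.

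**Figure D5:**
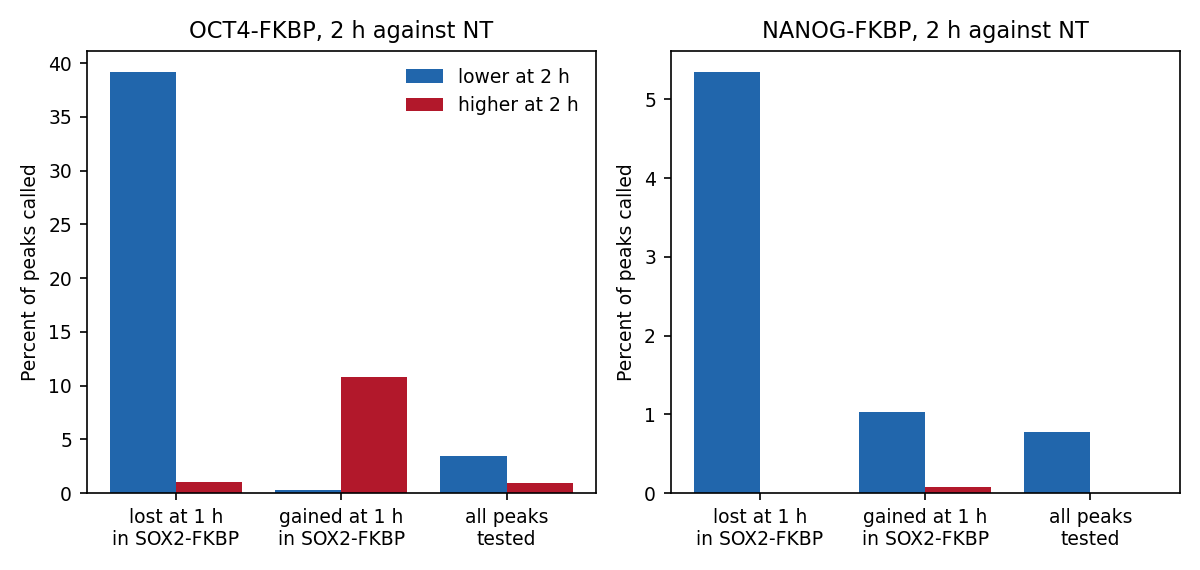
Percent of peaks called lower (blue) or higher (red) at 2 h of OCT4 depletion (left) and of NANOG depletion (right), among peaks lost or gained at 1 h of SOX2 depletion and among all peaks tested in each line; the y axes differ. In OCT4-FKBP 39.2% of the lost peaks were lower and 10.8% of the gained peaks were higher, against 3.48% and 0.918% of all peaks. The sets differ in level, and its part in these shares was not tested.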

How the data were processed

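The deposited ATACseq counts are whole fragments per peak, without normalization. Per the labels and the methods, the authors used BWA to align read pairs to mm10, Picard to remove duplicates, then called peaks on merged libraries and counted overlapping fragments. Of 45 samples 31 have a count column, and the others were not analysed here. The sources used here name no shift of fragment ends, and the median peak is 636 bp wide.

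The main test is the quasi-likelihood test of edgeR 4.0.16 in R 4.3.3, with TMM scaling and a Benjamini-Hochberg threshold of 0.05. It was fitted to the 12 SOX2-FKBP libraries, keeping the 160432 peaks that exceed 10 counts in at least 3 libraries. OCT4-FKBP and NANOG-FKBP were each fitted alone. DESeq2 1.42.0, other scalings and filters, a replicate block and leaving out libraries are alternatives. SEs are the log2 fold change divided by the square root of F. The test was also run on counts simulated from the means, library sizes and spread of the main fit, and that outcome is not given here. Genes are from GENCODE vM21, and sequences from GRCm38, the assembly of mm10. Motifs are fixed letter patterns searched on both strands with Python 3.11.15.

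Named peaks are the 12 losses and 12 gains of largest fold change whose higher group averages 50 normalized counts or more and whose groups do not overlap, 1 per nearest protein-coding gene, then 5 and 5 within 500 bp of a start, and for each gene list the 4 called peaks of smallest adjusted p within 100 kb. The comparison, the rules and the gene lists were chosen with earlier results of these data known. Totals per library lay between 5664738 and 10887645 counts.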

Additional observations from a re-analysis of the deposited data

How the results depend on the processing

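Losses outnumbered gains under all 12 alternatives at 1 h. Against 8754 lost and 1427 gained, DESeq2's Wald test gave 4264 and 225, and the other scalings and filters gave 5464 to 9555 lost and 952 to 2024 gained. The filter of 10 counts in every library gave 5464 lost and 952 gained on 98187 peaks tested. Leaving out one library gave 4503 to 8243 lost and 257 to 2916 gained, with an arm of 1 library that is assumed to vary like the others. A block for the replicate number gave 11732 lost and 3855 gained, or 10897 and 3489 with GC offsets added. The labels do not say that a number marks a shared batch. Over all tested peaks, same-numbered libraries deviated together with correlations of 0.083 to 0.235 in 15 pairs of conditions (0.0971 for NT with 1H). All are positive, so a deviation shared by number is possible. Some are below 0.1, and by a limit of 0.1 in every pair the main test treated the samples as unpaired. A second look, limited to the 98187 peaks that reach 10 counts in every library, gave 0.113 to 0.347, but it was added after the blocked counts were known and was not used to decide. For 1H against 0.5H, where 0 peaks were called lower and 0 higher, the block gave 61 and 3, and leaving out one library gave 0 to 5 lower and 0 to 1 higher. At 2 h of OCT4 depletion DESeq2 gave 3790 lower and 946 higher and the block 10388 and 7146. At 2 h of NANOG depletion DESeq2 gave 484 and 3 and the block 2382 and 233, and leaving out treated replicate 2, chosen after seeing the data, 838 and 3. The cause was not tested. Of the named peaks, 48 of 61 losses and 11 of 19 gains kept the call in every setting in which they were tested, and the direction reversed in 0 of them. Some, among them the 12 largest losses, were tested in 11 of the 12 settings. With the whole peak searched, a SOX site was in 86.7% of lost and 52.9% of gained peaks, against 61.6% of all tested peaks. Their median widths were 927, 843 and 711 bp in this order, and the part of width in these shares was not tested. With 2 libraries a group, small changes are not detectable, also with the spread estimated over all 12 libraries of the line. Of the 160432 peaks tested, 51911 have fewer than 20 normalized counts.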

Other observations

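Some genes had several called peaks within 100 kb of their start. They were picked here after their values were seen, by number of calls, and long genes with many peaks have more chances. Dpp6, a subunit of neuronal potassium channels, had 10 lost peaks of 42 tested, with log2 fold changes from -2.92 to -0.73, and Auts2, a regulator of neuronal development, had 9 of 62. Tcf4, a basic helix-loop-helix factor, had 8 lost of 62. For gains, Cmip had 8 of 61, with 0.59 to 1.11, and Gse1 had 7 of 84, while Hes1, a Notch target, had 6 gained and 1 lost of 47. Grhl3, an epithelial transcription factor, had 5 gained of 27. In all, 4313 genes had at least 1 lost peak, 1040 at least 1 gained peak and 287 had both.

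Gained peaks lay farther from lost peaks than peaks without a call did. The median distance to the nearest lost peak was 117 kb for gained peaks and 83.2 kb for peaks that were not called, and 57.1 kb from a lost peak to another. By chromosome, the lost share ran from 3.96% on chromosome 11 to 8.94% on X, and the gained share from 0.0767% on X, with 2 gained of 2606 tested, to 1.55% on chromosome 11. These values are descriptions and were not tested.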
